A study of Homo sapiens with 3 samples.

Results

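The 10 genes described here encode the core of the machinery that carries a cell from G1 into S phase: the D-type cyclins CCND1 and CCND3, their kinases CDK4 and CDK6, the E-type cyclins CCNE1 and CCNE2, the kinase inhibitors CDKN2C, CDKN1B and CDKN1C, and the pocket protein RB1. They were taken by gene symbol from the 61533 genes that each table lists, and all 10 had a row in every table. RNA came from Hep3B cells, a human hepatocellular carcinoma line of which the labels give the genotype as WT, sequenced as polyadenylated RNA. The normoxia library came from cells kept at 20% O2. The hypoxia library came from cells kept at 1% O2 in a gas-flushed chamber. The third came from cells at 1% O2 that also received sodium oxamate, a pyruvate analogue known to inhibit lactate dehydrogenase, with 48 hours given as the treatment time. No source used here gives the oxamate dose or the length of hypoxia. All libraries come from 1 cell line, and each condition has 1 library, so the differences below lack a replicate check and carry no p-value.

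D-type cyclins bind CDK4 or CDK6, and the resulting kinases begin to phosphorylate RB1 and its relatives RBL1 and RBL2. Phosphorylation releases the E2F transcription factors, whose targets include CCNE1, CCNE2 and the replication genes, and cyclin E then acts through CDK2. INK4 inhibitors (CDKN2A to CDKN2D) bind CDK4 and CDK6 directly, while Cip/Kip inhibitors (CDKN1A to CDKN1C) act mainly on cyclin E and cyclin A kinases. Hep3B is commonly described as a line without functional p53 or RB protein. The tables measure RNA only.

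Levels are given as FPKM, fragments scaled to exon length and to library size, as the authors deposited them. The libraries held 27412147, 26309340 and 24826365 fragments for normoxia, hypoxia and oxamate, recovered from those values. Ratios were computed from these fragments after scaling the libraries by a trimmed mean of log ratios, so they can differ slightly from a ratio of FPKM values. A gene was called higher or lower where the ratio reached 2 and the library with the higher level held at least 50 fragments. Intervals are 95% exact intervals of counting error, and they say nothing of the spread between cultures. All 10 known targets of the hypoxia-inducible factor on a list used to check the oxygen labels were higher at 1% O2 (median log2 ratio 2.62), CA9 among them at 4.21 FPKM in normoxia and 115 FPKM in hypoxia. All 10 hepatocyte and hepatoma markers were detected in every library, and their summed FPKM was 8511, 5572 and 3314 in normoxia, hypoxia and oxamate. ALB alone gave 5362 FPKM of this sum in normoxia and 2578 FPKM in hypoxia. By the rule 4 of the 10 were lower in hypoxia than in normoxia and 1, TF, was higher, beside 8.06% and 10.8% of all genes. With oxamate 5 were lower and 0 higher than in hypoxia, beside 5.07% and 5.92% of all genes. Against normoxia the oxamate library had 6 lower and 0 higher, beside 15.3% and 15.4%. The summed FPKM of 7 stellate cell and fibroblast markers was 7.83 to 9.51, with 2 or 3 at 0, that of 6 endothelial markers was 0.216 to 2.62, with 3 at 0, and that of 7 blood cell markers was 18.9 to 34.9, with 2 to 4 at 0. In hypoxia PECAM1 gave 1.07 of 1.10 FPKM of the endothelial sum, and LYZ gave 18.4 of 18.9 FPKM of the blood cell sum. Markers of other epithelia, 5 in number and none at 0, summed to 499, 325 and 358 FPKM. The part that these shifts play in the values below was not tested. In bulk RNA, fewer cells of a type or phase and less RNA per cell cannot be told apart.

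Between normoxia and hypoxia, 3 of the 9 G1 genes with enough fragments were lower at 1% O2 (CCND1, CDK4 and CDKN2C) and 0 were higher. Over all genes with enough fragments, 8.06% were lower (1093 of 13554) and 10.8% were higher (1468). The split of all genes depends on the scaling: it was 1775 higher and 751 lower by total fragments, and 2030 higher and 614 lower by the upper quartile. Under both of these scalings CCND1 was still past the ratio of 2, while CDK4 and CDKN2C were not. The median log2 ratio was -0.47 for the 9 genes and -0.16 for all protein-coding genes, and these moved together to -0.32 and -0.01 by total fragments, and to -0.22 and 0.09 by the upper quartile.

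Between hypoxia and hypoxia with oxamate, 0 of the 9 genes were higher and 0 were lower. Over all genes the shares were 5.92% higher (813 of 13739) and 5.07% lower (696). The median log2 ratio of the 9 genes was -0.09, against -0.03 for all protein-coding genes. It was 0.10 where a gene needed 100 fragments, which leaves out CDKN2C, so the sign of this median rests on 1 gene.

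Between normoxia and hypoxia with oxamate, 4 of the 9 genes were lower (CCND1, CDK4, CCNE1 and CDKN2C) and RB1 was higher. Over all genes 15.3% were lower (2079 of 13597) and 15.4% were higher (2091), a split that became 2697 higher and 1399 lower by the upper quartile. The median log2 ratio was -0.32 for the 9 genes and -0.18 for protein-coding genes, or -0.09 and 0.05 by the upper quartile. The 3 comparisons share libraries, so their values are given side by side and are not independent of each other.

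**Figure D1:**
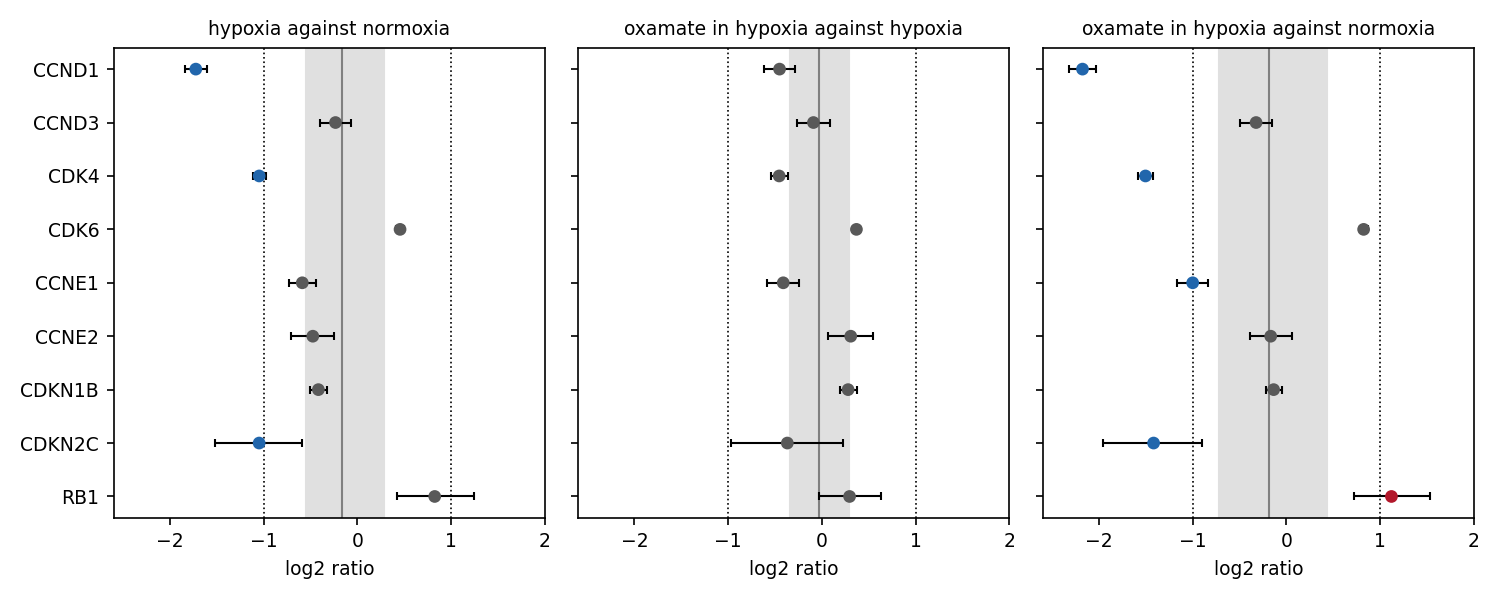
Log2 ratio of each of the 9 G1 genes (points) in the 3 comparisons, with bars for the 95% exact interval of counting error, too narrow to see for CDK6. Blue points were called lower and the red point higher; dotted lines mark a ratio of 2 either way, and the grey line and band mark the median and the middle 50% of all protein-coding genes. CCND1 lies farthest to the left in the first and last panels, CDK6 and RB1 lie to the right in every panel, and no gene passes a dotted line in the middle panel.

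Of the D-type cyclins, CCND1, the mitogen-responsive cyclin D1, showed the largest difference from normoxia among the 10 genes. It lies on the plus strand at chr11:69641156-69654474 in hg38, per the tables. Its level was 19.0 FPKM in normoxia, 5.70 FPKM in hypoxia and 4.14 FPKM with oxamate, from 2332, 755 and 499 fragments. Normoxia was thus high and the hypoxic libraries low, with no overlap of the counting intervals. CCND1 was 3.30-fold lower in hypoxia than in normoxia (3.04 to 3.59) and 4.52-fold lower with oxamate than in normoxia (4.10 to 4.99). With oxamate it was 1.37-fold lower than in hypoxia alone (1.22 to 1.53), which did not reach the ratio of 2. Among the 19854 protein-coding genes it ranked 2357 in normoxia, 5972 in hypoxia and 6996 with oxamate. Across the 11 other settings its log2 ratio for hypoxia lay between -1.74 and -1.47, and CCND1 passed the ratio of 2 against normoxia under each of them. Of its exon bases, 10.3% are shared with LTO1 on the opposite strand, which had 198, 249 and 262 fragments. Whether the libraries keep strand is not stated, so reads of such shared bases cannot be assigned with certainty.

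CCND3, cyclin D3, is on the minus strand at chr6:41934934-42050357. It had 4.43 FPKM in normoxia, 3.73 FPKM in hypoxia and 3.48 FPKM with oxamate, from 656, 597 and 507 fragments. No comparison reached the ratio of 2. In hypoxia it was 1.18-fold lower than in normoxia (1.05 to 1.32), a direction that flips to a log2 ratio of 0.02 under upper-quartile scaling. With oxamate it was 1.06-fold lower than in hypoxia, with an interval of 0.944 to 1.2 that spans no difference, and 1.25-fold lower than in normoxia (1.11 to 1.41).

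The makeup of the cyclin D pool therefore differed between the libraries. CCND1 was 81.1% of the summed FPKM of CCND1 and CCND3 in normoxia (79.8 to 82.4), 60.5% in hypoxia (57.9 to 63.1) and 54.4% with oxamate (51.2 to 57.5). These shares depend on the length used for each gene, since the tables use all annotated exons and much of the CCND3 exon length lies outside its main transcript. With the length of the principal GENCODE transcript, an alternative added after the data were seen, the shares of CCND1 were 63.2%, 38.0% and 32.3%, so CCND3 was the higher of the pair in both hypoxic libraries. The direction across libraries was the same under either length. CCND2, the remaining D-type cyclin, was scarce throughout, with 5, 61 and 18 fragments in the same order of libraries.

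**Figure D2:**
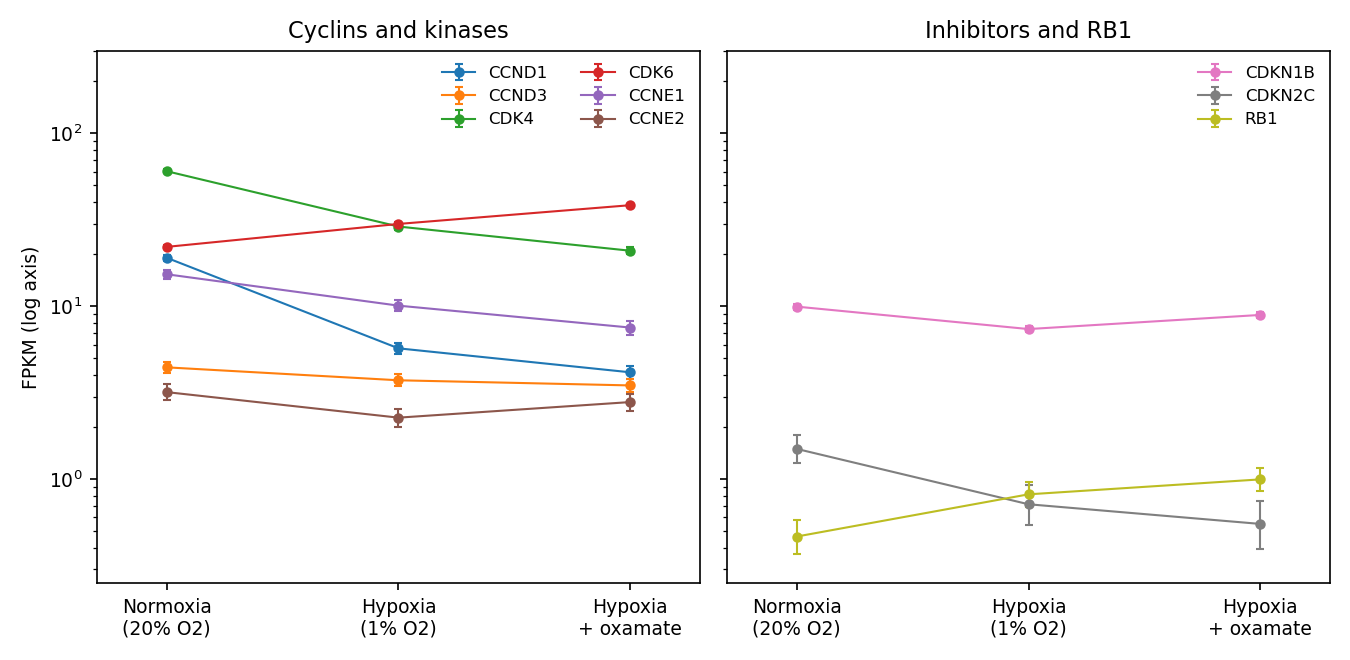
FPKM of 9 of the G1 genes on a log axis in the 3 libraries, cyclins and kinases on the left and inhibitors and RB1 on the right, with bars for the 95% exact interval of counting error; CDKN1C, listed at 0 in each library, cannot be drawn on a log axis. The CDK4 line descends from 60.3 to 20.9 FPKM and crosses the CDK6 line, which ascends from 22.0 to 38.4 FPKM, and the CDKN2C and RB1 lines cross as well.

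The kinases of the D-type cyclins differed in opposite directions. CDK4, on the minus strand at chr12:57747727-57756013, had 60.3 FPKM in normoxia, 28.9 FPKM in hypoxia and 20.9 FPKM with oxamate, from 4801, 2484 and 1637 fragments. Its level was highest in normoxia, where it ranked 593 among protein-coding genes, against 1181 in hypoxia and 1835 with oxamate. CDK4 was 2.07-fold lower in hypoxia than in normoxia (1.97 to 2.17), 1.37-fold lower with oxamate than in hypoxia (1.29 to 1.46), and 2.84-fold lower with oxamate than in normoxia (2.68 to 3.00). The first of these sits at the edge of the rule, with ratios under 2 inside its interval. Its log2 ratio of -1.05 became -0.89 by total fragments, -0.80 by the upper quartile and -0.87 once a trend of the ratio with gene length was removed. Of the CDK4 exon bases, 43.2% are shared with TSPAN31 on the opposite strand, which had 583, 599 and 614 fragments.

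CDK6, on the minus strand at chr7:92604921-92836573, had 22.0 FPKM in normoxia, 29.9 FPKM in hypoxia and 38.4 FPKM with oxamate. It had the most fragments of the 10 genes, 6933, 10172 and 11873, and so the narrowest intervals. CDK6 was 1.37-fold higher in hypoxia (1.33 to 1.41), 1.29-fold higher with oxamate than in hypoxia (1.26 to 1.33) and 1.77-fold higher with oxamate than in normoxia (1.72 to 1.82). No call was made, although upper-quartile scaling took the last comparison past the ratio of 2 (log2 ratio 1.05). With the length trend removed its log2 ratio was 0.19 for hypoxia and 0.53 for oxamate, both against normoxia. Its rank among protein-coding genes was 1983, 1125 and 831 in the same order of libraries.

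CDK4 made up 73.3% of the summed FPKM of the kinase pair in normoxia (72.5 to 74.0), 49.1% in hypoxia (48.0 to 50.2) and 35.3% with oxamate (34.1 to 36.5). In hypoxia the levels of the pair could not be separated by counting error, with intervals of 27.7 to 30.03 FPKM for CDK4 and 29.3 to 30.5 FPKM for CDK6. By principal transcript length the CDK4 shares were 79.5%, 57.7% and 43.5%, so CDK4 stayed the higher of the pair in hypoxia and was the lower with oxamate. CDK4 thus exceeded CDK6 in normoxia and CDK6 exceeded CDK4 with oxamate under either length, while their order in hypoxia depends on it. The summed FPKM of the pair was 82.3 in normoxia, 58.8 in hypoxia and 59.3 with oxamate.

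**Figure D3:**
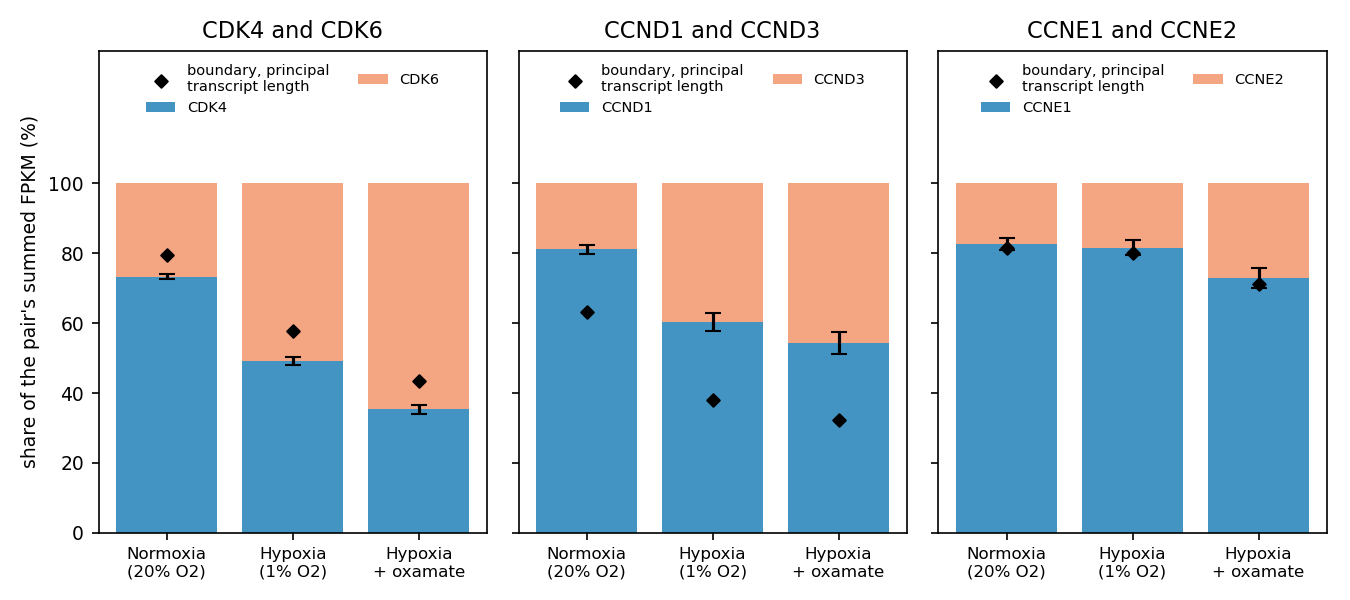
Share of each pair's summed FPKM (bars, from 0 to 100%) in the 3 libraries for CDK4 and CDK6, CCND1 and CCND3, and CCNE1 and CCNE2, with bars for the 95% exact interval of counting error. Black diamonds mark where the boundary lies by principal transcript length: the CDK4 share goes from 73.3% to 35.3% and the CCND1 share from 81.1% to 54.4%, and the diamonds move the same way at other heights.

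The CDK4 promoter is shown because it holds 3 copies of the E-box CACGTG, the sequence known to bind MYC with its partner MAX. MYC had 32.7 FPKM in normoxia, 7.32 FPKM in hypoxia and 8.31 FPKM with oxamate, which made it 4.42-fold lower in hypoxia (4.12 to 4.75) and 3.87-fold lower with oxamate than in normoxia (3.61 to 4.16). The E-box was added to the search after the MYC values were seen. The stretch runs from base -231 to base -81 relative to a RefSeq start site of CDK4 that lies inside the gene span given above. It is on the minus strand at chr12:57752391-57752541 of GRCh38.p14, written 5′ to 3′ with the E-boxes in capitals.
CDK4: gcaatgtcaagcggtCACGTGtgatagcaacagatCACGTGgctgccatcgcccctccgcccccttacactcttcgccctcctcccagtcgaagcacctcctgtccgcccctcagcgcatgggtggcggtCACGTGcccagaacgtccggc
Of the 35116 RefSeq promoter windows of 300 bases, 33 hold at least 3 E-boxes, which is 0.0940%, and 7.26% hold at least 1. The minimum of 3 is the count in the CDK4 window itself, so the share describes that window and is not a test. Windows were used for 7 of the 10 genes, 12 windows in all, and none was used for CCND1, CCNE2 or CDKN1C. Besides CDK4, the E-box was found in CDKN2C, also called lower, and in CDK6, which went the other way. CDK6 was 1.37-fold higher in hypoxia and 1.77-fold higher with oxamate than in normoxia, without a call. A match is a description of these letters, and whether MYC binds there was not tested.

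The other motifs searched on both strands of the same windows were TTTCCCGC and TTTGGCGC, forms of the E2F site, and ACGTG and GCGTG, cores of the hypoxia response element. Neither E2F form was found in the windows of the 7 genes, and 2.27% of all windows hold at least 1 of them. CCNE2, named above as an E2F target, was not searched. The RB1 window used, chr13:48476200-48476499, lies inside the gene and not at the start that the tables give, so the search covers no sequence at that start. The windows of CDK4, CDKN1B and CCND3 likewise lie inside the gene spans given here and do not cover their outermost starts. ACGTG was found in 3 of the 7 genes, against 21.4% of all windows, and each of these genes also holds the E-box, which contains ACGTG on either strand. GCGTG was found in 4 of the 7 genes, against 36.5% of all windows. Genes with several windows have more bases in which to match, so the shares of genes and of windows are not directly comparable.

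The E-type cyclins activate CDK2 late in G1. CCNE1, on the plus strand at chr19:29811991-29824312, had 15.3 FPKM in normoxia, 10.1 FPKM in hypoxia and 7.52 FPKM with oxamate, from 968, 689 and 468 fragments. Its counting intervals did not overlap between any of the libraries. In hypoxia CCNE1 was 1.5-fold lower than in normoxia (1.36 to 1.66), and with oxamate 1.33-fold lower than in hypoxia (1.18 to 1.5). Against normoxia the oxamate library was 2.0-fold lower (1.79 to 2.24), which is exactly at the rule, with ratios under 2 inside the interval. The call was lost by total fragments (log2 ratio -0.91), by the upper quartile (-0.77), on the log2(FPKM + 1) scale (-0.94), and with a trend with gene length (-0.76) or GC content (-0.99) removed.

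CCNE2, on the minus strand at chr8:94879770-94896678, had 3.18 FPKM in normoxia, 2.27 FPKM in hypoxia and 2.79 FPKM with oxamate, from 360, 277 and 310 fragments. It was 1.39-fold lower in hypoxia than in normoxia (1.19 to 1.63) and 1.24-fold higher with oxamate than in hypoxia (1.05 to 1.46). The oxamate and normoxia libraries differed by 1.12-fold, with an interval of 0.962 to 1.31 that spans no difference, and the direction flips under upper-quartile scaling (log2 ratio 0.06). Of its exon bases, 37.1% are shared with genes on the opposite strand, chiefly INTS8, which had 2176, 1967 and 1501 fragments, many more than CCNE2. CCNE1 was 82.8% of the summed FPKM of the E pair in normoxia (81.0 to 84.5), 81.6% in hypoxia (79.4 to 83.7) and 73.0% with oxamate (70.0 to 75.8), so its share was lowest with oxamate.

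Among the inhibitors, CDKN2C, which encodes the INK4 protein p18, was scarce. It lies on the plus strand at chr1:50960745-50974634 and had 1.49 FPKM in normoxia, 0.715 FPKM in hypoxia and 0.550 FPKM with oxamate, from 116, 60 and 42 fragments. Normoxia was high and the hypoxic libraries were low and overlapped each other. CDKN2C was 2.07-fold lower in hypoxia than in normoxia (1.5 to 2.87) and 2.67-fold lower with oxamate than in normoxia (1.86 to 3.90). Between the hypoxic libraries the 1.29-fold difference had an interval of 0.856 to 1.96. Both calls rest on few fragments, and both intervals include ratios under 2. The call for hypoxia was lost by total fragments (log2 ratio -0.89), by the upper quartile (-0.80), with the length trend removed (-0.86) and on the log2(FPKM + pseudocount) scale (-0.97 with 0.1 and -0.54 with 1). The call for oxamate was lost with a pseudocount of 1 (-0.69).

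CDKN2C is the other gene whose promoter windows hold E-boxes among the genes called lower, and a stretch around each is shown for comparison with CDK4. The E-box of CDK6, whose level was higher than in normoxia, is not shown. The first lies at chr1:50960510-50960545, bases -235 to -200 from the upstream RefSeq start, and the second at chr1:50970161-50970196, bases -84 to -49 from a downstream start, both on the plus strand of GRCh38.p14 and written 5′ to 3′ with the E-box in capitals.
CDKN2C upstream: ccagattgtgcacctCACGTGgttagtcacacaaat
CDKN2C downstream: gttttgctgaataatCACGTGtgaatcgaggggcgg
Each holds a lone copy, unlike the CDK4 stretch, and the files do not say which start Hep3B cells use.

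The other INK4 genes, taken from the wider list of G1 genes, give the setting of CDKN2C. CDKN2A, whose products include p16, was the most abundant of them in normoxia and hypoxia, at 39.2 FPKM and 39.1 FPKM, and had 43.6 FPKM with oxamate. These values are per gene and do not separate its transcripts, and 7.88% of its exon bases are shared with CDKN2B-AS1. CDKN2B, which encodes p15, had 5.54 FPKM in normoxia, 20.2 FPKM in hypoxia and 77.3 FPKM with oxamate. It was 3.68-fold higher in hypoxia than in normoxia (3.36 to 4.04) and 3.86-fold higher with oxamate than in hypoxia (3.68 to 4.04), so CDKN2B and CDKN2C differed in opposite directions from normoxia. CDKN2B made up 11.4% of the summed INK4 FPKM in normoxia, 32.4% in hypoxia and 61.1% with oxamate, while CDKN2C made up 3.08%, 1.15% and 0.435%. By principal transcript length, which for CDKN2A is 1283 bases against 3885 in the tables, CDKN2B made up 4.41%, 14.5% and 36.4%, and CDKN2A, at 60.8%, stayed the larger share with oxamate. The CDKN2C shares were then 1.21%, 0.522% and 0.264%. CDKN2D, which encodes p19, had 2.27, 2.34 and 5.04 FPKM and was 2.17-fold higher with oxamate than in hypoxia (1.69 to 2.79).

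CDKN1B, which encodes p27, a Cip/Kip inhibitor controlled largely by protein turnover, is on the plus strand at chr12:12685498-12722369. It had 9.94 FPKM in normoxia, 7.37 FPKM in hypoxia and 8.90 FPKM with oxamate, from 2366, 1897 and 2082 fragments. CDKN1B was 1.33-fold lower in hypoxia than in normoxia (1.26 to 1.42) and 1.21-fold higher with oxamate than in hypoxia (1.14 to 1.29). The oxamate and normoxia libraries lay 1.10-fold apart (1.04 to 1.17), lower with oxamate, with the direction flipped under upper-quartile scaling (log2 ratio 0.09). The tables give CDKN1B an exon length of 9255 bases against 2657 bases for its principal GENCODE transcript, and by the latter its levels would be 34.6, 25.7 and 31.0 FPKM. Its place among the other genes therefore depends on the length. With the trend of the ratio with gene length removed, its log2 ratio against normoxia went from -0.42 to -0.59 in hypoxia and from -0.14 to -0.33 with oxamate.

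CDKN1C, which encodes p57, is on the minus strand at chr11:2883213-2885775 and was listed at 0 in all 3 libraries. A floor of 3 fragments, set for a count of 0, corresponds to 0.0470 FPKM in normoxia, 0.0435 FPKM in hypoxia and 0.0478 FPKM with oxamate. The 95% exact intervals reach slightly higher, to 0.0578, 0.0535 and 0.0588 FPKM in the same order. No other gene in the tables overlaps CDKN1C. No ratio was computed. CDKN1A, which encodes p21, had 1.44 FPKM in normoxia, 4.20 FPKM in hypoxia and 5.48 FPKM with oxamate, 2.95-fold higher in hypoxia than in normoxia (2.37 to 3.68) and 3.87-fold higher with oxamate than in normoxia (3.13 to 4.81). CDKN1B therefore went from 87.3% of the summed Cip/Kip FPKM in normoxia to 63.7% in hypoxia and 61.9% with oxamate, or from 94.8% to 82.2% and 81.1% by principal transcript length.

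**Figure D4:**
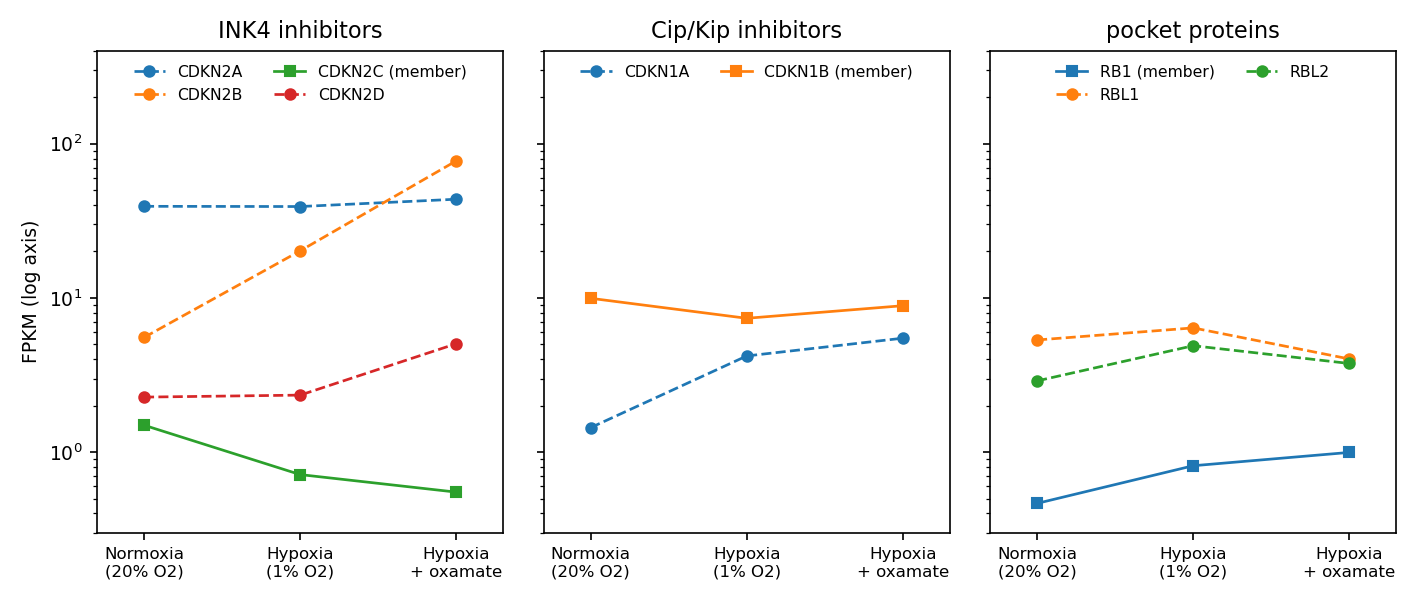
FPKM on a log axis of the INK4 inhibitors, Cip/Kip inhibitors and pocket proteins in the 3 libraries, with squares and solid lines for the genes of the set of 10 and circles and dashed lines for their relatives. CDKN2C descends from 1.49 to 0.550 FPKM while CDKN2B ascends from 5.54 to 77.3 FPKM, and RB1 stays below RBL1 and RBL2 in each library; CDKN1C, listed at 0, is not drawn.

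RB1, the pocket protein that the cyclin D kinases phosphorylate, is on the plus strand at chr13:48303744-48599436. It had 0.465 FPKM in normoxia, 0.816 FPKM in hypoxia and 0.996 FPKM with oxamate, from 77, 146 and 162 fragments. It was the lowest of the 9 detected genes in normoxia and ranked 11323 among protein-coding genes there. RB1 was 1.77-fold higher in hypoxia than in normoxia (1.34 to 2.37) and 2.18-fold higher with oxamate than in normoxia (1.65 to 2.89). Between the hypoxic libraries the ratio was 1.23, with an interval of 0.975 to 1.55 that spans no difference. The call against normoxia was lost with the trend with GC content removed (log2 ratio 0.97) and under log2(FPKM + pseudocount) scales (0.95 with 0.1 and 0.45 with 1), which understate the change of low genes. By the upper quartile RB1 was past the ratio of 2 in hypoxia as well (log2 ratio 1.08).

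The related pocket proteins were more abundant. RBL1 had 5.33 FPKM in normoxia, 6.39 FPKM in hypoxia and 4.02 FPKM with oxamate, and RBL2 had 2.90, 4.90 and 3.75 FPKM. RB1 made up 5.35%, 6.74% and 11.4% of the summed FPKM of the family in that order.

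In order of level, CDK4 led the set in normoxia, followed by CDK6, CCND1, CCNE1, CDKN1B, CCND3, CCNE2, CDKN2C and RB1, and no neighbours in that order had overlapping counting intervals. In hypoxia CCNE1 and CDKN1B stood above CCND1, and the intervals of CDK4 and CDK6 overlapped, as did those of RB1 (0.689 to 0.960 FPKM) and CDKN2C (0.546 to 0.920 FPKM). With oxamate CDK6 led, CDKN1B stood above CCNE1, RB1 stood above CDKN2C, and CCND1 (3.79 to 4.52 FPKM) overlapped CCND3 (3.18 to 3.80 FPKM). These orders use the exon lengths of the tables, and those of CCND1, CCND3, CDKN1B, CDK4 and CDK6 in particular shift with principal transcript length.

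Genes around this core were read from lists chosen by their known roles. Beside each count stand the shares of all genes, 10.8% higher and 8.06% lower in hypoxia against normoxia. They were 5.92% and 5.07% in oxamate against hypoxia, and 15.4% and 15.3% in oxamate against normoxia. The counts of these short lists, here and below, are descriptions and were not tested against those shares. Of 14 other G1 cyclins, kinases and inhibitors with enough fragments, 3 were higher in hypoxia than in normoxia (CDKN1A, CDKN2B and CCND2) and CDKN3 was lower (2.14-fold, 1.92 to 2.40). The CDKN3 call was lost by total fragments (log2 ratio -0.94) and by the upper quartile (-0.85). CCNA2, the cyclin of S phase, had 31.8 FPKM in hypoxia and 14.1 FPKM with oxamate, a 2.24-fold difference (2.08 to 2.42). In oxamate against hypoxia 2 of 14 were higher (CDKN2B and CDKN2D) and 3 lower (CCND2, CCNA2 and CDKN3), and against normoxia 3 of 13 were higher and 3 lower, CDC25A among the latter (2.20-fold, 1.98 to 2.45, lost by the upper quartile at a log2 ratio of -0.91). Of 17 pocket protein, E2F and DREAM complex genes none passed the rule in hypoxia against normoxia, and adding oxamate to hypoxia left E2F2 3.71-fold lower (2.76 to 5.08), the only call of the list there. Against normoxia the oxamate library had LIN37 higher (2.26-fold, 1.47 to 3.55) and E2F2 and E2F8 lower, the E2F8 call being lost by the upper quartile (log2 ratio -0.97). The LIN37 call rests on 70 against 32 fragments, and 54.0% of its exon bases are shared with other genes. By the upper quartile RBL2 was past the rule in hypoxia against normoxia (1.02). Of 15 genes for turnover and assembly of the G1 complexes, SKP2, whose product marks p27 for degradation, was lower in hypoxia (2.09-fold, 2.0 to 2.19) and with oxamate (3.74-fold, 3.54 to 3.96) than in normoxia, and was the only gene of that list past the rule. The hypoxia call was lost by total fragments (log2 ratio -0.91) and by the upper quartile (-0.81), and the oxamate count of 1 was the same under both. No gene of it passed the rule between the hypoxic libraries.

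Of 20 known E2F targets of S phase, CDC6 alone passed the rule in hypoxia against normoxia (2.03-fold lower, 1.94 to 2.12), although all 20 had log2 ratios below 0 and the median was -0.59. By total fragments the CDC6 log2 ratio was -0.86 and the median -0.44, and by the upper quartile they were -0.77 and -0.34 with 19 of the 20 below 0, so no gene of the list passed under either. With oxamate against normoxia 14 of the 20 were lower and 0 were higher, beside 15.3% and 15.4% of all genes. The median was -1.18, beside -0.18 for all protein-coding genes. These were 11 of 20 by total fragments and 10 of 20 by the upper quartile (median -0.95). The lowest ratios were those of GINS2 (4.15-fold lower, 3.60 to 4.81), TK1 (2.86-fold, 2.71 to 3.03) and TIPIN (2.82-fold, 2.40 to 3.33). Of 12 genes of G2 and mitosis, 0 passed the rule in hypoxia and 7 were lower with oxamate than in normoxia (median -1.21), CDC20 the lowest of them (3.53-fold, 3.33 to 3.75), and 5 were lower by the upper quartile (median -0.98). In hypoxia the median of this list was -0.60, or -0.35 by the upper quartile. Between the hypoxic libraries the medians of these lists were -0.53 and -0.80, and only GINS2 of the first and CCNB2 and AURKB of the second passed the rule, joined by BUB1 by total fragments (log2 ratio -1.02).

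**Figure D5:**
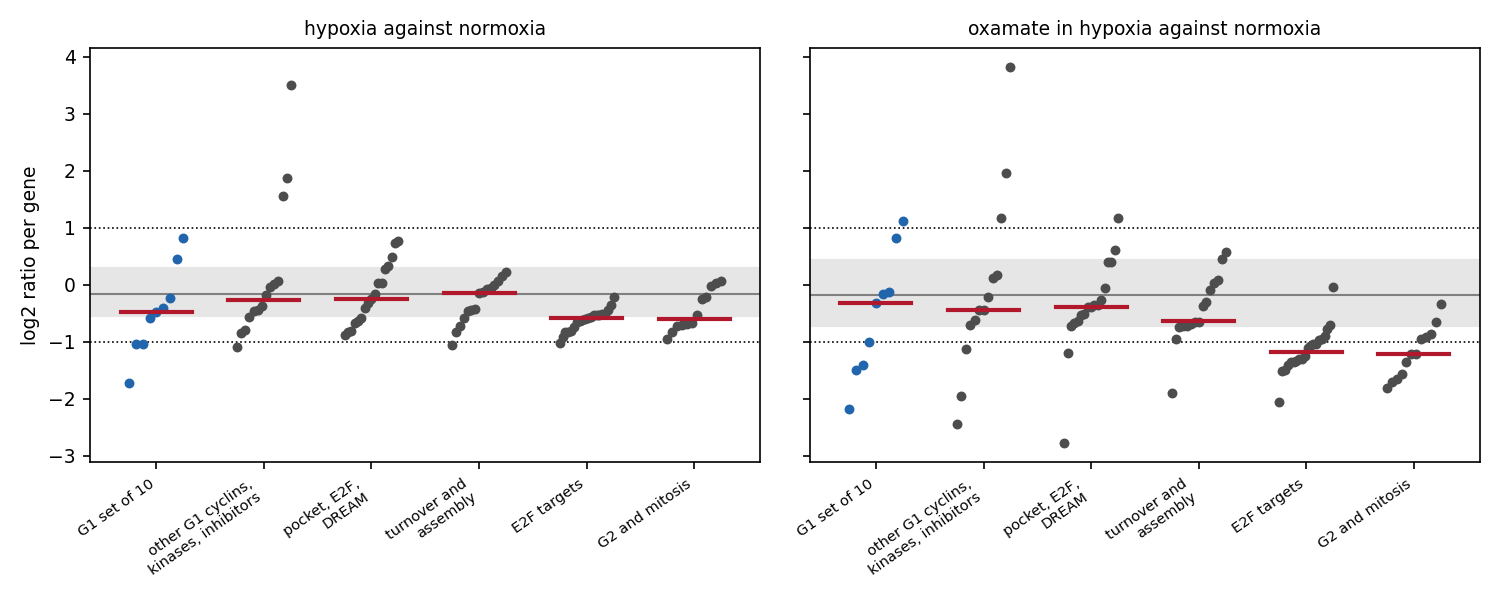
Log2 ratio of each gene (points) in the set of 10 and in 5 lists of related cell cycle genes, for hypoxia against normoxia and for oxamate in hypoxia against normoxia, with red bars at the medians, dotted lines at a ratio of 2 either way, and a grey line and band for the median and middle 50% of all protein-coding genes. The E2F target median lies at -0.59 on the left and -1.18 on the right, and the set of 10 (blue) spreads to both sides of 0 in both panels.

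Of 16 genes for mitogenic and stress inputs to G1, 6 were higher in hypoxia than in normoxia and 2 were lower. Over all genes the shares were 10.8% and 8.06%. JUNB, an AP-1 subunit, was 5.20-fold higher (4.92 to 5.49), SMAD3, a carrier of TGF-beta signals, 3.50-fold higher (3.34 to 3.68), and BTG1, an antiproliferative factor, 3.42-fold higher (3.27 to 3.58). The lower genes were MYC, given above, and AXIN2 (2.01-fold, 1.44 to 2.83). MXI1, an antagonist of MYC (2.54-fold, 2.18 to 2.97), JUN, another AP-1 subunit (2.19-fold, 2.09 to 2.29), and CDKN1A, given above, were the other higher genes. With oxamate against normoxia 6 were also higher and 2 lower, but JUN and AXIN2 were no longer among them and KLF6 (2.92-fold higher, 2.76 to 3.08) and BTG2 (2.03-fold lower, 1.72 to 2.41) were. The calls of AXIN2 in hypoxia (log2 ratio -0.85 and -0.75) and of BTG2 with oxamate (-0.93 and -0.79) were lost by total fragments and by the upper quartile, under which KLF6 also passed in hypoxia (1.09 and 1.19). In oxamate against normoxia the upper quartile also took JUN (1.11) and FOXO3 (1.06) past the rule. That scaling gave 8 higher and 1 lower there, so the absence of JUN depends on the scaling. Between the hypoxic libraries 0 of the 16 passed the rule in either direction.

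The genes whose pattern lay nearest to each called member were found among 8977 protein-coding genes with at least 200 fragments in each library, by the distance between their log2 ratios for hypoxia against normoxia and for oxamate against hypoxia. For CCND1 the nearest were PSMG1, NDUFAF3 and ZNF703, at distances of 0.0103, 0.0542 and 0.0625, and 24 genes lay within 0.25. For CDK4 they were DIS3L, MFSD3 and TOMM34, with 224 genes within 0.25. For CDKN2C they were DHX29, SLC40A1 and MAD2L2, with 275 genes, and for CCNE1 they were MRPL57, SNRNP40 and TRMT112, with 649 genes. For RB1 they were NATD1, CCDC80 and USP34, with 162 genes. The pattern of CCND1 thus had the fewest genes near it and that of CCNE1 the most, over 3 libraries and with no bearing on function. Such numbers follow from where a ratio lies among all genes. In hypoxia against normoxia CCND1 was at percentile 1.76 of protein-coding genes and CCNE1 at 23.1. CDKN2C and RB1 had under 200 fragments in each library, and their counting intervals are wider than 0.25, so their nearest genes are uncertain.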

How the data were processed

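The data are poly(A)-selected RNA libraries of Hep3B cells, 1 for each of 3 conditions. The authors deposited 1 table per library with FPKM values, gene coordinates and exon lengths, per the file headers. The build was hg38, per the submitters' processing notes, which also list, without roles, featureCounts 1.5.0-p3, edgeR 3.22.5, HISAT2 2.0.5 and StringTie 1.3.3b. No source used here gives settings or strand.

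The design had assumed counts. Dividing each product of FPKM and gene length by the smallest step of its library gave whole fragments for 100% of values above 0, within 0.01, and these fragments were used. The library sizes implied by the FPKM were 0.938, 1.06 and 1.02 times the summed fragments of the normoxia, hypoxia and oxamate libraries. Detected genes numbered 24566, 27462 and 27505. Genes reaching 10 fragments in sum were used to scale the libraries by a trimmed mean of log ratios (30% and 5% trimmed), with factors 0.944, 1.05 and 1.01, using Python 3.11.15, pandas 2.3.3, numpy 2.4.6, statsmodels 0.14.6, scipy 1.17.1 and, for figures, matplotlib 3.10.9. No test was possible with 1 library per condition. Intervals are 95% conditional binomial (Clopper-Pearson) intervals for ratios and shares and exact Poisson intervals for levels. No molecular identifiers are described, so fragments may repeat a molecule, and every interval or floor reflects counting error alone. List medians use a prior count of 0.5 and genes with at least 50 fragments in either library. The ratio calculation was checked on simulated libraries drawn with counting error alone. Such a check cannot address the spread between cultures.

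Gene types, principal transcripts, exon overlaps and GC content came from GENCODE 29, which matched 58312 of 61533 genes by identifier, 19854 of them protein-coding. Promoter windows run from 250 bases before to 50 after each RefSeq start (GRCh38.p14). A comparison of protein sequences was planned and not run. The members and lists were chosen with earlier results of these data known. Named were all 10 members, genes of the other lists from among those past the size rule (of the E2F target and mitosis lists those with the lowest ratios), and the 3 nearest patterns of each called member. Relatives of the members in a family, CA9, and the markers ALB, TF, PECAM1 and LYZ were named for setting. FOXO3 was named because it passed the rule by the upper quartile only. Principal transcript lengths for pairs and families, the E-box, and other scalings of the lists were added after the data were seen. The 11 alternatives cover scaling, pseudocount, filters, thresholds, gene length and GC content.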

Additional observations from a re-analysis of the deposited data

How the results depend on the processing

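No member reversed a call under the 11 alternatives. In hypoxia against normoxia, members called lower went from 3 to 1, CCND1, by total fragments and by the upper quartile. The same held where the whole interval had to pass the ratio, and with the length trend removed. Members called lower were 2, CCND1 and CDK4, with an FPKM pseudocount of 0.1 or 1. At a threshold of 1.5 they were 4, with CCNE1 added. Members called higher went from 0 to 1, RB1, by the upper quartile and at a threshold of 1.5. In oxamate against normoxia, members called higher went from 1 to 2 with CDK6 by the upper quartile and at 1.5, and to 0 with an FPKM pseudocount of 0.1 or 1, by the whole interval and with the GC trend removed. Members called lower there went from 4 to 2, CCND1 and CDK4, with a pseudocount of 1 and by the whole interval. They went to 3, without CCNE1, by total fragments, by the upper quartile and with the length or GC trend removed. These follow from the construction of each alternative for members near the ratio of 2; otherwise the cause was not tested.

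Over all genes, upper-quartile scaling gave 614 lower in hypoxia. A pseudocount of 1 gave 559 higher and 581 lower in hypoxia against normoxia, 324 and 187 in oxamate against hypoxia, and 1025 and 1325 in oxamate against normoxia. With no filter on low values the pairs were 9112 and 4679, 6544 and 6042, and 10303 and 5711. Requiring the whole interval gave 944 and 665 in hypoxia against normoxia and 491 and 307 in oxamate against hypoxia. A threshold of 1.5 gave 2530 and 2964, 1880 and 1894, and 3307 and 3903. At 42 to 162 fragments, CDKN2C and RB1 are limited by depth. A median of ratios and a minimum of 100 fragments left the member counts as they were, although the latter leaves CDKN2C out of oxamate against hypoxia and turns the median of the members there from -0.09 to 0.10.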
